A study of Arabidopsis thaliana with 12 samples.

Results

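The 8 genes described here encode the main histone H3 proteins of Arabidopsis thaliana: 5 H3.1 genes (AT1G09200, AT3G27360, AT5G10390, AT5G10400 and AT5G65360) and 3 H3.3 genes (AT4G40030, AT4G40040 and AT5G10980). They were chosen by their gene identifiers, not by their values, and all 8 are among the 33323 nuclear genes counted. RNA polymerase II (RNAPII) on these genes was followed by chromatin immunoprecipitation with sequencing of 12 libraries from 10-day-old seedlings of the Columbia ecotype. One antibody recognises the polymerase phosphorylated on serine 5 of its C-terminal repeats (S5P), and the other recognises serine 2 phosphorylation (S2P). Each antibody was used on 3 induced and 3 mock libraries, which gives the groups S5P induced, S5P mock, S2P induced and S2P mock.

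Every plant, mock plants included, carried the tfIIs-1 (SALK_056755) insertion in TFIIS (AT2G38560), which encodes an elongation factor that restarts backtracked RNAPII. Induced plants were exposed to 2 mM β-estradiol for 24 h and mock plants to EtOH. For the S5P induced libraries the labels name GFP-TFIISmut as the induced protein, a mutated form. For the S2P induced libraries they name GFP-TFIIS. The title of the series mentions no form other than the mutated one, so which form the S2P induced plants made is uncertain. If the labels hold, an effect of the antibody cannot be told apart from one of the induced protein between the 2 induced groups, and neither can a response to the induced protein and a response to estradiol. No wild-type plants or input chromatin were used here. Neither the promoter of the transgene nor the number of lines is known from the labels. The labels do not say whether replicates are separate cultures. If they are not, a p-value covers no more than the spread between these libraries, and that spread may be technical.

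H3.1 is the replicative form of H3. It is made mainly in S phase and placed on new DNA by the CAF-1 chaperone complex, and in plants its lysine 27 is monomethylated by ATXR5 and ATXR6. H3.3 differs from H3.1 at a few residues, is made throughout the cell cycle, and replaces H3 in transcribed genes through chaperones such as HIRA. S5P RNAPII is typically found near transcription start sites (TSS), and S2P RNAPII over the bodies of genes being elongated. The comparisons ask whether RNAPII on the 2 classes of H3 genes differed between induced and mock plants and between the 2 forms of the polymerase.

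Libraries held 115868 to 2537034 reads in nuclear genes, a 21.9-fold range, and depth limited what could be seen. Under 250000 reads were present in 4 libraries: S5P induced replicate 2, S2P induced replicate 3, and S2P mock replicates 1 and 2. A count of 3 reads, the limit that a count of 0 allows, was worth 1.18 to 25.9 CPM (counts per 1000000 reads in nuclear genes), and covers counting error only. TFIIS itself ranged from 43.2 to 179 CPM in S5P induced and 46.9 to 58.9 CPM in S5P mock libraries, and from 61.8 to 125 CPM in S2P induced and 18.8 to 67.7 CPM in S2P mock libraries, so the ranges overlapped with either antibody. As a check of the tissue, 5 leaf photosynthesis genes summed to 204 to 630 CPM in S5P induced, 230 to 870 CPM in S5P mock, 187 to 457 CPM in S2P induced and 203 to 832 CPM in S2P mock libraries. Replicate 1 of both mock groups stood apart, at 870 and 832 CPM, while the other 4 mock libraries had at most 267 CPM. A list of 14 seed and flower genes that should be silent in seedlings had group means of 199 to 258 CPM. In S2P mock replicates 2 and 3 the leaf genes summed to less than this list, at 203 against 349 and 208 against 219 CPM. In every other library they summed to more. Per gene the silent list had 14.2 to 18.4 CPM and the leaf genes 69.6 to 91.2 CPM. The 5 H3.1 genes averaged 12.4 to 21.8 CPM per gene, and the 3 H3.3 genes 65.1 to 104 CPM per gene. Gene lengths of the build used for counting were not used here, so these values do not rank genes by occupancy.

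Among the H3.1 genes, AT5G65360 had 27.9, 8.63 and 46.2 CPM in S5P induced replicates 1 to 3, against 55.7, 41.3 and 36.8 CPM in S5P mock. In the S2P libraries it had 19.4, 25.1 and 9.50 CPM in induced plants, against 25.0, 20.8 and 24.0 CPM in mock plants. Its S5P mock libraries were all above its S2P mock libraries, while induced and mock ranges overlapped with both antibodies. The lowest value with each antibody came from the shallow induced library.

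AT5G10400 lies next to AT5G10390 in the genome, per the RefSeq gene table of assembly TAIR10.1. AT5G10400 had 21.8, 0 and 23.8 CPM in S5P induced replicates 1 to 3, against 22.3, 19.3 and 25.0 CPM in S5P mock. Its S2P values were 10.9, 20.8 and 14.3 CPM in induced plants, against 18.8, 15.6 and 21.3 CPM in mock plants. The deeper S5P libraries all lay within a narrow band, and the 0 in S5P induced replicate 2 allows up to 25.9 CPM. For AT5G10390, S5P values were 7.88, 8.63 and 12.7 CPM in induced plants, against 12.7, 5.51 and 7.04 CPM in mock plants. Its S2P values were 7.87, 9.51 and 14.3 CPM in induced plants, against 18.8, 10.4 and 9.07 CPM in mock plants. No library held more than 23 reads of AT5G10390, and its groups overlapped.

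AT1G09200 had 24.9, 8.63 and 16.4 CPM in S5P induced replicates 1 to 3, against 25.5, 8.27 and 21.1 CPM in S5P mock. In the S2P libraries it had 7.87, 17.3 and 4.75 CPM in induced plants, against 12.5, 10.4 and 16.6 CPM in mock plants. All 4 groups overlapped. AT3G27360 had 10.3, 0 and 14.9 CPM in S5P induced libraries, against 6.36, 13.8 and 26.6 CPM in S5P mock. Its S2P values were 13.9, 11.2 and 0 CPM in induced plants, against 18.8, 10.4 and 12.2 CPM in mock plants. Both zeros fell in libraries of low depth, where 0 reads allow up to 25.9 CPM in S5P induced replicate 2 and 14.3 CPM in S2P induced replicate 3.

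Among the H3.3 genes, AT4G40030 and AT4G40040 are neighbours in the genome. AT4G40040 had 156, 17.3 and 201 CPM in S5P induced replicates 1 to 3, against 172, 121 and 250 CPM in S5P mock. In the S2P libraries it had 90.3, 172 and 42.8 CPM in induced plants, against 175, 109 and 188 CPM in mock plants. The shallow induced library was again the lowest with each antibody. AT4G40030 had 47.9, 43.2 and 64.8 CPM in S5P induced libraries, against 71.6, 44.1 and 62.6 CPM in S5P mock. Its S2P values were 49.1, 59.7 and 23.8 CPM in induced plants, against 62.5, 46.9 and 70.9 CPM in mock plants. In AT4G40030 S5P induced replicate 2 did not fall away from the other S5P libraries as it did in AT4G40040.

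AT5G10980 stands apart from that pair in the genome. It had 78.2, 0 and 119 CPM in S5P induced replicates 1 to 3, against 81.1, 46.9 and 86.1 CPM in S5P mock. In the S2P libraries it had 45.4, 88.2 and 14.3 CPM in induced plants, against 87.5, 31.2 and 52.0 CPM in mock plants. Its highest and its lowest S5P value both came from induced plants, and its groups overlapped throughout.

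**Figure D1:**
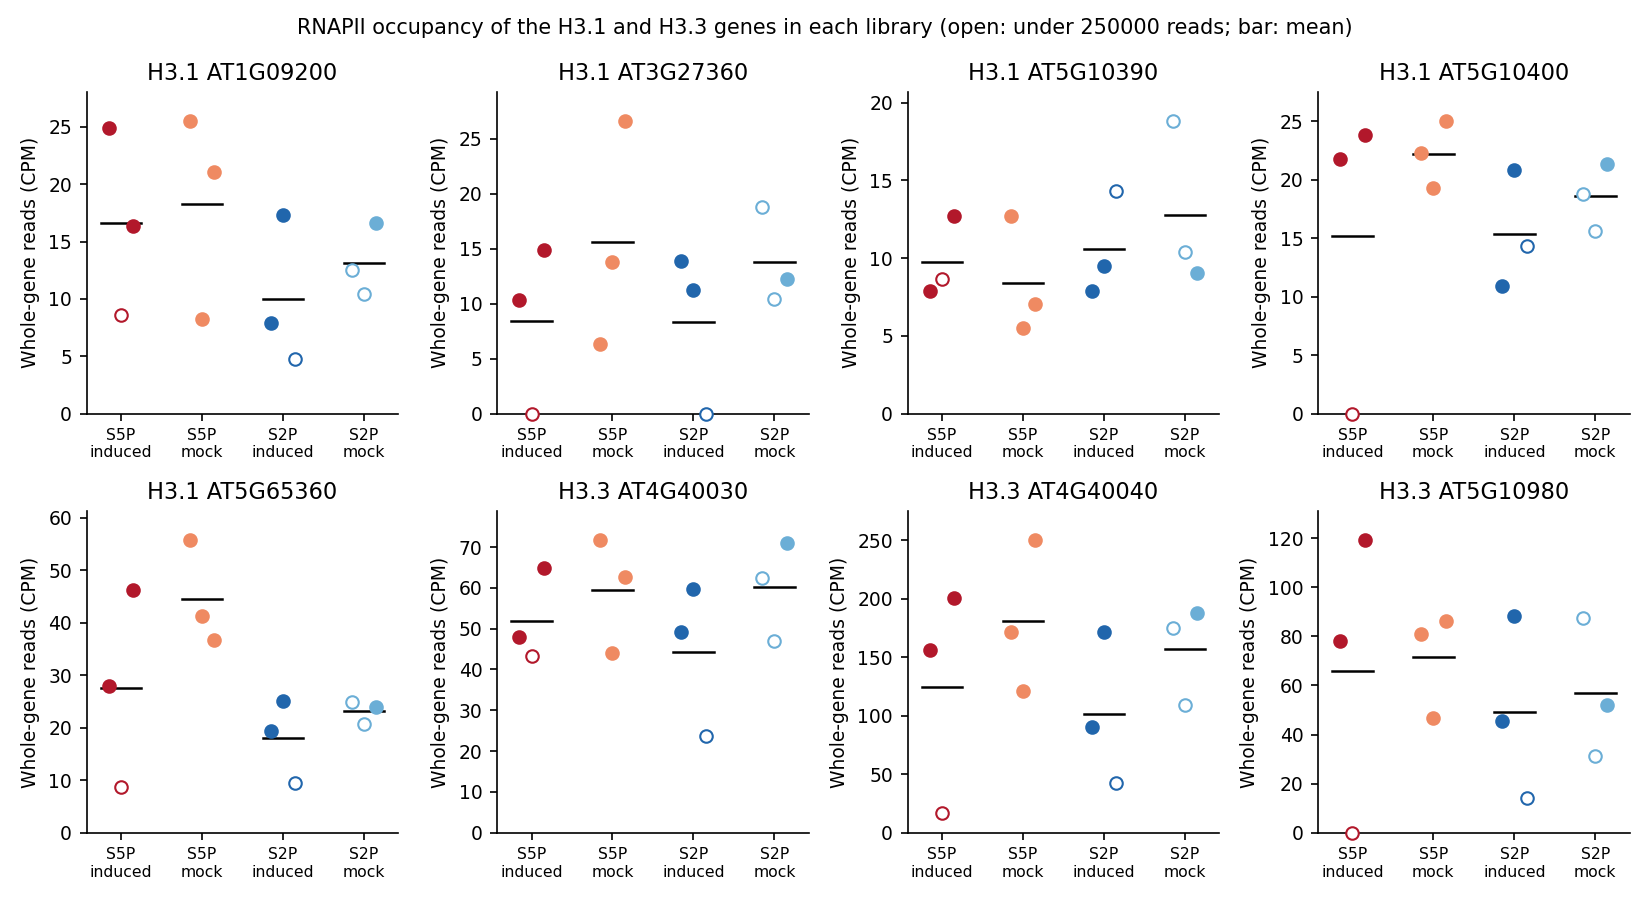
Whole-gene reads (CPM, vertical axes) of each of the 5 H3.1 and 3 H3.3 genes in the 12 libraries, grouped by antibody and induction. Points are libraries, open where the library has under 250000 reads, and bars are group means (n = 3); S5P mock lies above S2P mock without overlap for AT5G65360, from 36.8 to 55.7 CPM against 20.8 to 25.0 CPM.

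Summed over the class, H3.1 genes had 77.6 ± 46.0 CPM in S5P induced, 109 ± 18.3 CPM in S5P mock, 62.2 ± 20.6 CPM in S2P induced and 81.5 ± 13.1 CPM in S2P mock libraries (SD, n = 3 each). The H3.3 genes summed to 243 ± 166, 312 ± 94.1, 195 ± 120 and 275 ± 75.8 CPM in the same groups (SD, n = 3 each). In both classes the order of means was S5P mock, S2P mock, S5P induced and S2P induced, highest first. Neighbours in that order overlapped in their library values in both classes. The place of S5P induced rests on its shallow replicate 2, with 25.9 CPM for H3.1 and 60.4 CPM for H3.3. Its other libraries had 92.8 and 114 CPM for H3.1 and 282 and 385 CPM for H3.3, all above the S2P mock means. Within the mock libraries of the same replicate number, which deviate together, the H3.1 sum was higher with S5P than with S2P in all 3 pairs, by 0.39, 0.38 and 0.49 on the log2 scale. The H3.3 sum differed by 0.00, 0.18 and 0.36 in the same pairs. In S2P mock replicates 1 and 2 the H3.1 sum rests on 15 and 13 reads. Single H3.1 genes did not all go the way of their sum. AT5G65360 had 55.7, 41.3 and 36.8 CPM with S5P against 25.0, 20.8 and 24.0 CPM with S2P. AT5G10400 was also higher with S5P in each pair, and AT5G10390 was lower in each. AT1G09200 and AT3G27360 changed direction between pairs. How much of the difference in the H3.1 sum rests on AT5G65360 was not tested. These are descriptions, with no test, and the share of all genes that were higher in all 3 pairs was not computed.

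The first comparison asked whether induction changed S5P RNAPII on the H3 genes. Of the 8 genes 7 passed the filter on low counts, and none was called at an adjusted p under 0.05 by edgeR's quasi-likelihood test. This stood beside 0.0% of all 21954 genes tested by edgeR, of which 1648 were under 0.05 before adjustment. None of the 8 genes had CPM ranges that did not overlap, where 2.32% of all genes were higher and 13.3% lower in induced libraries without overlap. The log2 fold change was 0.10 (SE 0.40) for AT1G09200, -0.51 (SE 0.52) for AT3G27360, -0.03 (SE 0.39) for AT5G10400 and -0.29 (SE 0.40) for AT5G65360. Among H3.3 genes it was -0.01 (SE 0.39) for AT4G40030, -0.35 (SE 0.65) for AT4G40040 and 0.18 (SE 0.63) for AT5G10980. The lowest edgeR adjusted p of the 7 was 0.810, and none had an unadjusted p under 0.05. The median of the tested genes was -0.03, beside -0.008 over all genes tested. These intervals are wide: for AT4G40040 the 95% interval ran from -1.77 to 1.08 and for AT5G10400 from -0.89 to 0.82. AT5G10390 was not tested. Over all genes, DESeq2 called 92 in this comparison and limma voom 0, and neither called an H3 gene. DESeq2 gave no adjusted p for AT1G09200, AT3G27360 and AT5G10400, so it could not call them.

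With the S2P antibody 5 of the 8 genes passed the filter, and edgeR again called none, beside 0.016% of the 18798 genes tested. The 3 genes that edgeR called over the whole genome were all higher in induced plants. None of the 8 H3 genes had ranges without overlap, where 2.68% of all genes were higher and 9.35% lower in induced plants. The log2 fold change was -0.25 (SE 0.37) for AT5G10400 and -0.06 (SE 0.36) for AT5G65360 among H3.1 genes. For the H3.3 genes it was -0.23 (SE 0.36) for AT4G40030, -0.46 (SE 0.47) for AT4G40040 and 0.11 (SE 0.47) for AT5G10980. No gene had an unadjusted p under 0.05, and the lowest edgeR adjusted p was 0.828. The median was -0.23, beside 0.035 over all genes. The 95% interval of AT4G40040 ran from -1.48 to 0.55. Its value depended on single libraries: it was -1.16 (SE 0.39, adjusted p = 0.0745 in edgeR) without S2P induced replicate 2 and -0.11 without S2P induced replicate 3. The fit without replicate 2 called 7.68% of the 6849 genes it tested, 526 in all. DESeq2 called 42 genes and limma voom 1 over the whole genome, with no H3 gene among them. The H3.1 genes AT5G10400 and AT5G65360 had no adjusted p in DESeq2, so it could not call them.

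**Figure D2:**
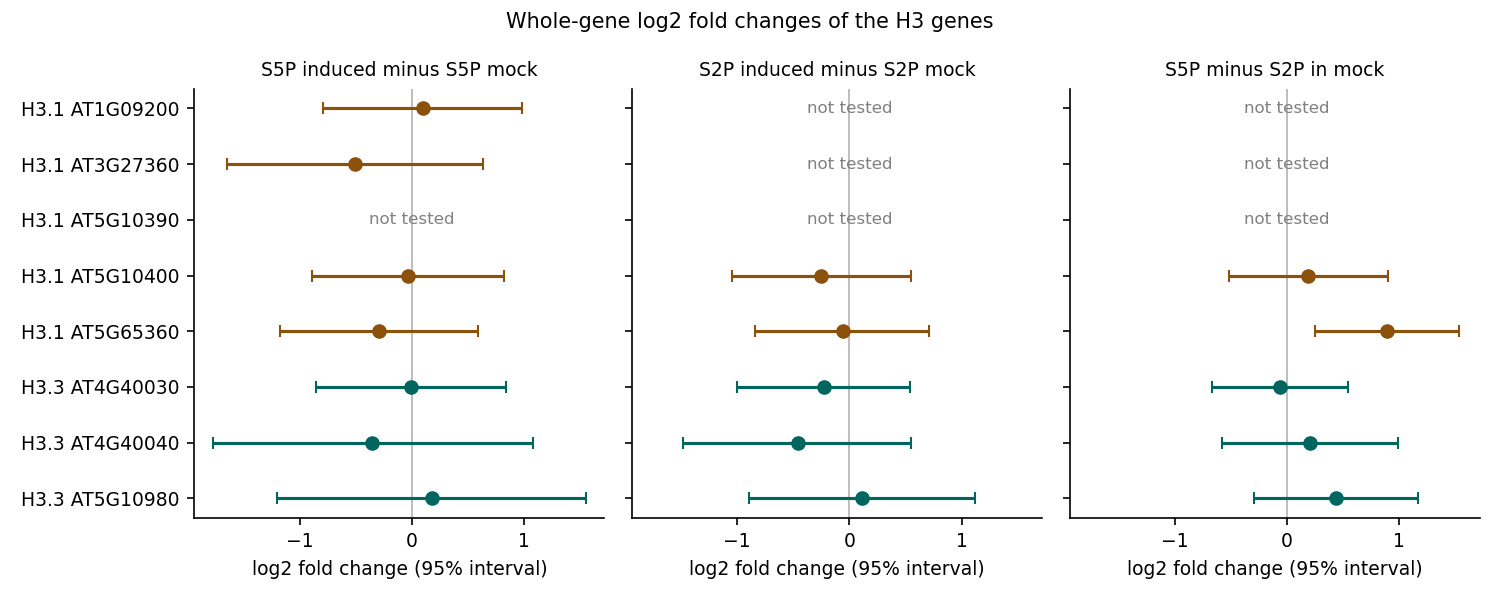
Whole-gene log2 fold changes (horizontal axes) of the 8 H3 genes with 95% intervals from edgeR, for S5P induced minus S5P mock, S2P induced minus S2P mock, and S5P minus S2P in mock plants; brown marks H3.1 genes and green H3.3 genes. All intervals of the induction comparisons span 0, and the interval of AT5G65360 between antibodies runs from 0.25 to 1.53.

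A fit over all 12 libraries, with the antibody as a term, tested the induction averaged over both antibodies. All 8 H3 genes were tested and none was called, where edgeR called 2.06% of the 23793 genes, 415 higher and 76 lower in induced plants. Their log2 fold changes ran from -0.36 for AT4G40040 to 0.20 for AT5G10390 and AT5G10980. The median was -0.09, beside -0.002 over all genes, and 2 of the 8 values were above 0. The lowest edgeR adjusted p was 0.665, and no H3 gene had an unadjusted p under 0.05. The 95% intervals of the H3.1 genes AT5G10400 and AT5G65360 ran from -0.63 to 0.44 and from -0.68 to 0.38. For the H3.3 gene AT4G40030 the interval ran from -0.60 to 0.43. DESeq2 called 1874 genes and limma voom 297 in this comparison, and neither list held an H3 gene.

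The difference between the S5P and S2P responses was tested as an interaction of antibody and induction. No H3 gene was called, beside 0.0% of 23793 genes by edgeR, of which 151 were under 0.05 before adjustment, and 0 by DESeq2 or limma voom. Values ran from -0.51 (SE 0.76) for AT3G27360 to 0.37 (SE 0.60) for AT1G09200. No H3 gene had an unadjusted p under 0.05.

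In mock plants the comparison of S5P with S2P asked how the 2 forms of the polymerase were spread over the H3 genes. Both forms are scaled to their own libraries, so a difference is relative to the average gene. AT5G65360 had a log2 fold change of 0.89 (SE 0.30, 95% interval 0.25 to 1.53), with an unadjusted p of 0.00974 and an adjusted p of 1.0 in edgeR. It did not pass the test. No other of the 5 tested H3 genes had an unadjusted p under 0.05. Its S5P mock values were all higher than its S2P mock values, as were those of 4.46% of all genes, and the other 7 H3 genes overlapped. No H3 gene was lower without overlap, against 3.76% of all genes. The other tested genes had log2 fold changes of 0.19 (SE 0.33) for AT5G10400, -0.06 (SE 0.28) for AT4G40030, 0.20 (SE 0.37) for AT4G40040 and 0.44 (SE 0.34) for AT5G10980. The value of AT5G65360 was 0.71 without S5P mock replicate 1 and 0.90 without S2P mock replicate 1, the mock libraries with high leaf genes. The median was 0.20, beside 0.015 over all genes. Over the genome 0.0% of 16388 genes passed in edgeR, and 372 were under 0.05 before adjustment. By DESeq2 and by limma voom the count was 0.

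S5P and S2P mock libraries of 1 replicate number moved together, so the numbers were taken to pair them. With the replicate number as a block, edgeR called 1.4% of the 16388 genes, 98 higher and 132 lower with S5P. No H3 gene was among them. AT5G65360 then had a log2 fold change of 0.75 (SE 0.28, adjusted p = 0.192) and AT5G10980 of 0.57 (SE 0.22, adjusted p = 0.231) in edgeR. These were the smallest adjusted p-values of the H3 genes in that fit.

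In induced plants S5P and S2P libraries come from plants for which the labels name different induced proteins, although the series title names the mutated form. Here all 8 genes were tested and edgeR called none, beside 0.0% of 23364 genes, of which 163 were under 0.05 before adjustment, and 0 by DESeq2 or limma voom. AT5G65360 had a log2 fold change of 0.64 (SE 0.40), and AT1G09200 of 0.73 (SE 0.41). For AT5G10980 the value was 0.44 (SE 0.72), and the median was 0.32, beside -0.019 over all genes. That median rests on single libraries: it was -0.03 without S5P induced replicate 3, 0.11 without S2P induced replicate 3, 0.57 without S5P induced replicate 2 and 0.65 without S2P induced replicate 2. No unadjusted p of an H3 gene was under 0.05. The S5P induced ranges of all 8 genes overlapped their S2P induced ranges, where 1.72% of all genes were higher and 2.58% lower without overlap.

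The balance of the classes was followed as the H3.1 part of all H3 reads in a library, which does not depend on how libraries are scaled. It was 24.8%, 30.0% and 22.8% in S5P induced replicates 1 to 3, against 27.4%, 29.4% and 22.6% in S5P mock. In the S2P libraries it was 24.5%, 20.8% and 34.6% in induced plants, against 22.4%, 26.5% and 21.1% in mock plants. The extremes came from few reads: the 34.6% of S2P induced replicate 3 rests on 9 H3.1 and 17 H3.3 reads, with an exact 95% binomial interval of 17.2% to 55.7%. The 30.0% of S5P induced replicate 2 rests on 3 and 7 reads, with an interval of 6.67% to 65.2%. By contrast, S2P mock replicate 3, with 211 and 790 reads, had an interval of 18.6% to 23.7%.

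**Figure D3:**
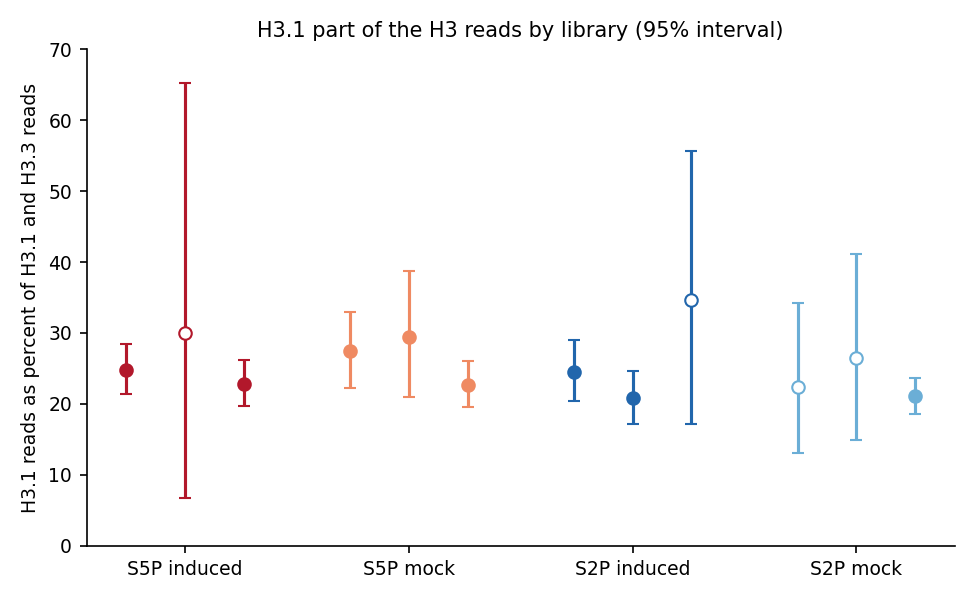
Percent of all H3.1 and H3.3 whole-gene reads that fall on the 5 H3.1 genes (vertical axis) in each of the 12 libraries, by group, with exact 95% binomial intervals that cover counting error only. Open points are libraries under 250000 reads; values lie between 20.8% and 34.6%, and the groups overlap.

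As a log2 ratio of H3.1 to H3.3 reads, the groups had -1.53 ± 0.28 in S5P induced, -1.48 ± 0.26 in S5P mock, -1.49 ± 0.52 in S2P induced and -1.72 ± 0.23 in S2P mock libraries (SD, n = 3 each). Induced minus mock was -0.05 with S5P and 0.23 with S2P, and S5P minus S2P was 0.24 in mock and -0.04 in induced plants. Each difference was smaller than the SD of at least 1 of its groups. Within the paired mock libraries the ratio was higher with S5P in all 3 pairs, by 0.39, 0.20 and 0.13, which is a description with no test. In S2P mock replicates 1 and 2 the ratio rests on 15 and 13 H3.1 reads. The single H3.1 genes did not share a direction in these pairs. The size of the ratio also depends on the number and length of the genes, so its difference between groups, not its level, is what the libraries can show. With the 4 shallow libraries left out, an alternative chosen after seeing the data, induced minus mock was -0.20 with S5P and 0.13 with S2P.

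Within the H3.3 class, AT5G10980 held 29.2% of the summed reads in S5P induced libraries and 22.5% in S5P mock, and 26.0% in S2P induced and 17.3% in S2P mock. Single libraries ranged from 0% to 30.9% in S5P induced and 21.6% to 25.0% in S5P mock, and from 17.6% to 27.6% in S2P induced and 16.7% to 26.9% in S2P mock, so the groups overlapped. AT4G40040 held 53.5% in S5P induced and 59.7% in S5P mock libraries, and 51.6% in S2P induced and 60.0% in S2P mock. Within the H3.1 class, AT5G65360 held 35.3% in S5P induced, 37.6% in S5P mock, 30.7% in S2P induced and 28.9% in S2P mock libraries. Reads of near-identical H3.1 copies may be split among them or lost, since the counter's line for reads that are not unique is 0 in every library. Values of single H3.1 genes are uncertain for that reason. Their sum is less so where reads were split, but not where they were lost, which would also affect the H3.1 to H3.3 ratio.

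The deposited TSS and gene body windows show where along the genes the reads lay, though their bounds are not known. Over the 12 libraries together, the TSS window took 76.1% of the reads of both windows in AT1G09200, 65.2% in AT5G10390, 63.3% in AT5G65360, 60.1% in AT5G10400 and 51.4% in AT3G27360. In the H3.3 genes it held 43.4% in AT4G40030, 42.6% in AT5G10980 and 24.2% in AT4G40040. All 5 H3.1 genes thus had a larger TSS share than each of the 3 H3.3 genes. The median of the 22886 nuclear genes with at least 100 reads was 21.7%. AT1G09200 was above 98.4% of these genes and AT3G27360 above 92.3%, while AT4G40040 was above 57.7%. A window of fixed size covers more of a short gene, and the part of gene length in these shares was not tested.

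**Figure D4:**
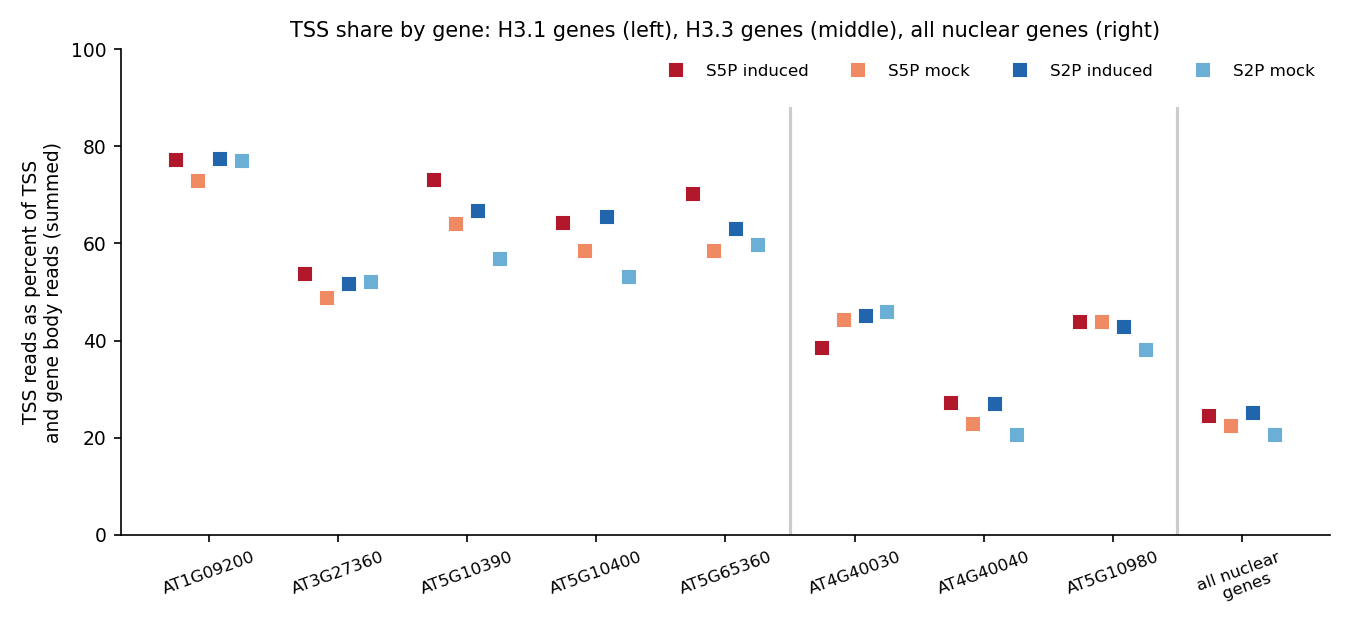
TSS reads as a percent of TSS and gene body reads, summed over the 3 libraries of a group (vertical axis), for each H3.1 gene, each H3.3 gene and all nuclear genes; colours mark the 4 groups. H3.1 genes lie between 48.7% and 77.3%, H3.3 genes between 20.6% and 45.9%, and all nuclear genes between 20.6% and 25.0%.

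The windows of the H3.1 genes, most of all AT3G27360, do not add up like those of most genes. The TSS window of AT3G27360 held 144 reads and its gene body window 136 reads, where the whole gene held 152. The sum of windows was 1.84 times the whole-gene count, more than in 99.8% of genes, where the median was 1.05. In the other 4 H3.1 genes this ratio was 1.23 to 1.30, more than in 97.8% to 98.8% of genes. For the H3.3 genes it was 1.07 to 1.12, more than in 76.7% to 91.6% of genes. In 4 libraries the TSS window of AT3G27360 held more reads than the whole gene. These were 12 against 4 in S5P mock replicate 1 and 36 against 31 in S2P mock replicate 3. In S5P induced replicate 2 and in S2P induced replicate 3 they were 1 against 0. The reason was not tested. The TSS share of AT3G27360 is uncertain, and to a lesser degree so are those of the other H3.1 genes.

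By group, the summed TSS share of the H3.1 genes was 65.4% ± 5.46 in S5P induced and 58.7% ± 6.38 in S5P mock libraries, with overlap (SD, n = 3 each). With S2P it was 67.0% ± 7.04 in induced and 54.9% ± 4.83 in mock libraries, and the induced range of 61.8% to 75.0% lay above the highest mock value of 59.7%. For the H3.3 genes it was 35.3% ± 2.23 in S5P induced and 32.1% ± 1.37 in S5P mock, and 38.2% ± 5.55 in S2P induced and 26.4% ± 3.24 in S2P mock (SD, n = 3 each). The S2P ranges of the H3.3 genes, 33.9% to 44.4% in induced and 23.7% to 30.0% in mock libraries, did not overlap either. The same measure over all nuclear genes was 27.2% ± 5.72 in S5P induced and 22.8% ± 1.02 in S5P mock, and 25.5% ± 1.93 in S2P induced and 21.5% ± 1.29 in S2P mock. Those S2P ranges, 23.3% to 27.1% and 20.3% to 22.9%, also lay apart, so induced and mock differed in the same direction in the H3 genes and in the sum of all genes. Without the 4 shallow libraries the S2P mock group is 1 library, with 59.7% for H3.1 and 30.0% for H3.3, and the S2P induced means were 63.0% and 35.0%. Few reads lay behind the shallow S2P libraries. The 75.0% of H3.1 rests on 9 TSS and 3 gene body reads, and the 44.4% of H3.3 on 8 and 10. H3.1 had 11 and 9 reads in S2P mock replicate 1, and 9 and 9 in replicate 2. The share of single genes with TSS shares that do not overlap was not computed.

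Gene by gene, the balance of TSS and gene body reads was tested with each window scaled on its own, which takes out a shift shared by all genes. With S5P 6 H3 genes were tested and none was called, beside 0.0% of 5066 genes by edgeR, and 77 of them, with 0 H3 genes, were under 0.05 before adjustment. The values ran from -0.52 (SE 0.50) for AT4G40030 to 0.50 (SE 0.51) for AT5G65360 on the log2 scale. With S2P the 3 H3.3 genes were tested and none was called, beside 0.0% of 2600 genes, and 30 of them, with 0 H3 genes, were under 0.05 before adjustment. AT4G40040 had 0.42 (SE 0.71) there. Between antibodies in mock plants none of the 3 tested genes was called, beside 0.0% of 1527 genes, and 37 of them, with 0 H3 genes, were under 0.05 before adjustment.

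Within the TSS window alone, induced plants had lower fitted values in all H3 genes that passed the low-count filter. None of them passed the test. With S5P 7 were tested, with log2 fold changes from -0.91 (SE 0.67) for AT3G27360 to -0.40 for AT5G10400 and AT5G10980, and a median of -0.63, beside -0.078 over all genes. With S2P 5 were tested, from -0.71 (SE 0.75) for AT5G65360 to -0.10 (SE 0.76) for AT5G10980, and a median of -0.64, beside 0.034 over all genes. For S5P 0.0% of 5753 genes passed in edgeR in this window, and 250 of them, with 0 H3 genes, were under 0.05 before adjustment. For S2P 0.0% of 3215 genes passed, and 116, with 0 H3 genes, were under that value. The libraries hold 35243 to 538938 reads in this window, and the SE of the H3 genes was 0.67 to 0.88. All 95% intervals of the H3 genes in this window spanned 0. The shared direction depended on the low-count filter. With no filter the S2P values were -0.06 for AT4G40030, -0.05 for AT5G10400 and AT5G65360, 0.24 for AT4G40040 and 0.52 for AT5G10980. Genes added by leaving out the filter had 0.02 (AT1G09200), 0.08 (AT3G27360) and 0.20 (AT5G10390). With S5P the values then ran from -0.59 for AT3G27360 to 0.18 for AT5G10390, and the others were below 0.

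In the gene body 6 H3 genes were tested with S5P and none was called, beside 0.0% of 18722 genes by edgeR, and 1485 of them, with 0 H3 genes, were under 0.05 before adjustment. AT5G65360 had a log2 fold change of -0.67 (SE 0.36) and AT3G27360 of -0.63 (SE 0.54), while AT5G10980 had 0.23 (SE 0.51). With S2P the 3 H3.3 genes were tested and none was called, beside 0.00626% of 15968 genes, and AT4G40040 had -0.64 (SE 0.45). Without S2P induced replicate 2 it had -1.24 (SE 0.39, adjusted p = 0.0637 in edgeR), where 7.16% of 4751 genes were called. No H3.1 gene had enough S2P gene body reads to be tested.

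H3 works with other histones, chaperones and the replication machinery, and these genes were followed in the fit over both antibodies, where edgeR called 2.06% of genes. Of the 13 H3 chaperones and H3.1 readers 1 was called: ASF1A (AT1G66740, listed as SGA2), a chaperone that hands H3 and H4 to CAF-1 and HIRA. ASF1A had 71.0, 259 and 64.8 CPM in S5P induced replicates 1 to 3, against 52.5, 46.9 and 22.7 CPM in S5P mock. In the S2P libraries it had 116, 52.7 and 119 CPM in induced plants, against 56.3, 36.4 and 30.0 CPM in mock plants. The S5P ranges did not overlap, as in 2.32% of all genes that were higher in S5P induced libraries, and the S2P ranges did. ASF1A rose by 1.70 on the log2 scale (SE 0.42, adjusted p = 0.039) in edgeR.

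The call of ASF1A depended on single libraries and on the scaling. It was kept in 8 of 21 other settings, with log2 fold changes of 1.23 to 1.89 and adjusted p-values of 0.0054 to 0.141 over edgeR, DESeq2 and limma voom. It was lost with RLE factors, total counts, upper quartile factors, limma voom and the replicate block. It was also lost without any 1 of S5P mock replicates 1, 2 or 3, S2P induced replicates 1 or 3, or S2P mock replicates 2 or 3, with log2 fold changes of 1.81, 1.72, 1.55, 1.60, 1.63, 1.69 and 1.64 in that order. Without the 4 shallow libraries the value was 1.23 (adjusted p = 0.0856 in edgeR). With 1 antibody at a time it was not called, at 1.91 (SE 0.69, adjusted p = 0.608) with S5P and 1.54 (SE 0.47, adjusted p = 0.427) with S2P in edgeR. The second chaperone-list gene by p was ATXR6, which monomethylates H3.1, at 0.57 (SE 0.24, adjusted p = 0.240). The median of the 13 was 0.10, with 11 above 0.

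None of the other histone genes was called in the same fit by edgeR. All 8 H4 genes were tested, with a median log2 fold change of 0.13. HIS4 (AT2G28740) had 0.55 (SE 0.28, adjusted p = 0.318 in edgeR) and AT3G46320 had 0.53 (SE 0.37). Of 11 H2B genes 8 were tested, with a median of 0.12, HTB1 at 0.64 (SE 0.27, adjusted p = 0.220 in edgeR) and HTB11 at 0.42 (SE 0.26). The 10 H2A genes outside the H2A.Z list had a median of 0.14. Among them HTA4 had -0.80 (SE 0.30) and RAT5, which encodes HTA1, had 0.75 (SE 0.35). The list for H2A.Z, the variant found near start sites, held 3 genes with a median of 0.34. HTA11 had 0.56 (SE 0.26) and HTA8 0.34 (SE 0.25). That list did not hold HTA4, and the class of HTA4 was not examined. Of 3 linker histone H1 genes 2 were tested, AT2G30620 at 0.20 (SE 0.29) and AT1G06760 at -0.19 (SE 0.33), with a median of 0.01. Among 6 other H3-like genes 3 were tested, with a median of -0.64. The summed CPM of all 6 was lower in induced libraries without overlap with both antibodies. So were 13.3% of all single genes with S5P and 9.35% with S2P. With S5P the sum was 17.3 to 51.4 in induced and 51.7 to 60.6 in mock libraries. The 17.3 rests on 2 reads in S5P induced replicate 2. With S2P the sum was 31.5 to 52.3 in induced and 59.1 to 81.3 in mock libraries. MGH3, known from male gametes, had -0.87 (SE 0.38, adjusted p = 0.244) and HTR11 had -0.64 (SE 0.29, adjusted p = 0.257) in edgeR.

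Genes of S phase and mitosis were followed as a measure of dividing cells, since H3.1 is made mainly in S phase. All 22 DNA replication genes were tested and none was called by edgeR, with 17 above 0 and a median of 0.21. The transcription factor gene E2FB (AT5G22220, listed as E2F1) had 0.78 (SE 0.30, adjusted p = 0.191 in edgeR). MCM5, a subunit of the replicative helicase, had 0.55 (SE 0.23, adjusted p = 0.232 in edgeR). None of 10 mitotic genes was called, with 3 above 0 and a median of -0.17. CDC20.1, an activator of the anaphase-promoting complex, had -0.68 (SE 0.31, adjusted p = 0.259 in edgeR), and the Aurora kinase gene AUR1 had -0.53 (SE 0.28). Summed over the list, mitotic genes had 194 ± 33.5 CPM in S5P induced and 214 ± 45.4 CPM in S5P mock, and 195 ± 18.8 CPM in S2P induced and 250 ± 29.1 CPM in S2P mock (SD, n = 3 each). The S2P ranges of the mitotic sum were 175 to 211 CPM in induced and 224 to 281 CPM in mock libraries, without overlap. By the same measure 9.35% of all single genes were lower in S2P induced libraries. S2P mock replicates 1 and 2 held 45 and 47 reads of this list. The S5P ranges of the mitotic sum overlapped. The replication genes summed to 972 ± 162 CPM in S5P induced and 980 ± 106 CPM in S5P mock, and 965 ± 106 CPM in S2P induced and 967 ± 105 CPM in S2P mock. The part of dividing cells in the H3.1 values was not tested. In whole seedlings fewer cells of a type and less polymerase per cell cannot be told apart.

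Across the 12 libraries the log2 CPM of the H3.1 sum and of the H3.3 sum had a Pearson correlation of 0.96, and of 0.81 in the 8 deeper libraries. Among 5376 genes with a mean of at least 50 CPM, the H3.1 sum was most like ATMS1, a methionine synthase gene (0.97), AT5G12850 (0.96) and AT3G60750 (0.96). In the 8 deeper libraries these correlations were 0.85, 0.89 and 0.85. The H3.3 sum was most like the formate dehydrogenase gene FDH (0.98), LARP1a (0.98), which encodes an RNA-binding protein, and BIP2 (0.98), a chaperone gene of the endoplasmic reticulum, with 0.95, 0.92 and 0.92 in the deeper libraries. These are descriptions over libraries that share their depth. The log2 number of reads in a library had a correlation of 0.67 with the H3.1 sum and 0.72 with the H3.3 sum, and of -0.03 and 0.45 in the 8 deeper libraries.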

How the data were processed

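Per the submitters' processing notes, reads were handled with Trimmomatic and HTSeq on build TAIR10; versions, aligner, window bounds and strand use are not stated. The authors deposited raw read counts per gene in 36 files, with whole-gene, TSS and gene body windows for 12 libraries. Lines that name no gene were left out; they show 74.7% to 96.7% of reads not aligned and 16.1% to 38.6% outside genes. Organelle genes were left out. Groups came from the labels. Genes were tested by quasi-likelihood in edgeR 4.0.16 (R 4.3.3) with TMM factors, filterByExpr at a minimum count of 10, and Benjamini-Hochberg adjustment over all nuclear genes tested, at 0.05. Standard errors came from the F statistic. Alternatives used DESeq2 1.42.0 and limma voom 3.58.1, other scalings, no filter, and omitted libraries. The scripts were tested on simulated data. In mock plants, deviations of same-numbered S5P and S2P libraries correlated at 0.178, 0.286 and 0.437 over 16388 genes, so the numbers were taken to pair them. Other groups were not taken as paired. No 2 libraries were identical.

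Members and gene lists were chosen with earlier results of these data known. H3 genes were always named; in each other list the 2 tested genes with the smallest unadjusted p over both antibodies; and for likeness, the 3 genes with the highest correlation. Symbols and the order of neighbouring genes came from a RefSeq table of assembly TAIR10.1. No lengths were taken from it.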

Additional observations from a re-analysis of the deposited data

How the results depend on the processing

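No H3 gene was called in any of the 13 comparisons or in any of the 178 other fits that tested at least 1 of them; 4 further fits tested none. Some H3.1 genes had no adjusted p in DESeq2 and could not be called there. The lowest adjusted p was 0.0637, for AT4G40040 in the S2P gene body without S2P induced replicate 2. Directions of single genes were less stable. For 17 whole-gene log2 fold changes there were 260 values under other settings. Of these 36 had the other sign, all on log2 fold changes that did not pass the test. Values of the TSS window, gene body and balance were not among them, and some of the TSS window also turned with no low-count filter. For S2P induced minus mock, AT5G65360 became 0.02 with no low-count filter and 0.06 without the 4 shallow libraries, and AT5G10980 became -0.06 with total counts, -0.02 with DESeq2, -0.01 with upper quartile factors and -0.17 with the replicate block. For S5P induced minus mock, AT1G09200 became -0.01 with total counts, -0.05 with upper quartile factors and -0.11 with the replicate block; AT5G10980 became -0.73 with limma voom and -0.09 with the replicate block. AT4G40030 became 0.02 with no filter, 0.12 with limma voom and 0.01 in the fit on all 12 libraries; AT5G10400 became 0.02 with no filter and 0.08 without the shallow libraries; AT4G40040 became 0.06 without them. For S5P minus S2P in mock, AT4G40040 became -0.06 without them. Leaving out 1 library at a time gave, for S2P, -0.13 to 0.10 for AT5G65360, -0.57 to 0.46 for AT5G10980 and -1.16 to -0.11 for AT4G40040. For S5P it gave -0.23 to 0.31 for AT1G09200, -0.21 to 0.10 for AT5G10400, -0.20 to 0.15 for AT4G40030, -0.80 to 0.06 for AT4G40040 and -0.37 to 0.53 for AT5G10980. Between antibodies in mock it gave -0.18 to 0.19 for AT4G40030 and -0.15 to 0.44 for AT4G40040, and 0.71 to 1.03 for AT5G65360. The cause of these turns was not tested.

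The difference in the H3.1 to H3.3 ratio for S5P induced minus mock became 0.26 when the mean of log2(CPM + 1) per gene replaced sums. For S2P induced minus mock it was 0.23, and 0.01 with that mean, -0.04 with gene body counts, 0.01 without AT5G10390 and AT5G10400, and -0.05 to 0.45 without 1 library at a time. The median of the genes' own TSS shares was 75.9% for H3.1 in S2P induced, 35.8% for H3.3 in S2P mock and 37.8% for H3.3 in S5P mock; without the shallow libraries H3.3 in S2P mock was 30.0%. The replicate block changed no call on an H3 gene. Between induced and mock, deviations of same-numbered libraries correlated at 0.00207, 0.184 and 0.315 with S5P, and at 0.0786, -0.141 and -0.248 with S2P. The same number was the best match for some of these replicates only. Counts were low: in the shallowest library the 8 genes together had 3 H3.1 and 7 H3.3 reads.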
